A study of Mus musculus with 2 samples.

Results

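The 10 genes described here encode the MHC class I molecule, its light chain, the machinery that loads it with peptide and a transcriptional activator of the group. They were chosen by symbol (B2m, H2-K1, H2-D1, H2-Q4, H2-Q7, H2-T23, Tap1, Tap2, Tapbp and Nlrc5), with no measured value used in the choice, and all 10 were found among the 32285 features of the count matrices. Single cells had been prepared from mouse retinas after lipopolysaccharide (LPS), a bacterial cell wall component that provokes inflammation, was delivered into the vitreous at 0.5 µg per eye. One library came from control eyes (Atg5fl/fl, a floxed Atg5 allele with no Cre listed, given LPS). The other came from Atg5 knockout eyes (GLAST-CreER; Atg5fl/fl, given LPS and 4-hydroxy-tamoxifen). GLAST (Slc1a3) is a glutamate transporter gene of Müller glia, the main glial cell of the retina, and its promoter drives a Cre that tamoxifen activates, so deletion of Atg5, a gene needed to form autophagosomes, is aimed at these cells. Genotype, Cre and drug differed together between the groups and cannot be told apart. Both groups had received LPS, so neither shows the retina at rest. The sources used here do not state age, sex, strain or the delay after injection.

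Each library pooled 6 retinas and there was 1 library per group. Differences between the libraries therefore had no replicate check, no test was possible, and every interval printed here is a 95% interval that covers counting error only. Of 8690 control barcodes and 5229 knockout barcodes, 8274 and 4662 passed the study's filter, with a median of 1396 and 6808 unique molecular identifiers (UMIs, one per captured RNA molecule). The gap in depth goes with a gap in rods, which hold few UMIs and made up 67.2% of control cells and 20.1% of knockout cells. In all, 15 barcodes occurred in both libraries. Cell classes were rebuilt from marker genes and carry the ending "-like". For each class and library the UMIs of all cells were summed, and a level is given as CPM, the counts-per-million scale of that sum. The 3' tags count molecules, so levels are compared between classes and libraries and not between genes. The targeted gene, Atg5, stood at 21.6 and 16.6 CPM in Müller-like cells of the control and the knockout library (ratio 0.771, 0.620 to 0.959). The tags are read at the 3' end and need not lie in the deleted part, so this checks nothing about the deletion.

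MHC class I molecules display peptides from inside the cell to CD8+ T cells. The heavy chains (H2-K1 and H2-D1, the classical pair, and H2-Q4, H2-Q7 and H2-T23, the nonclassical ones) need the light chain β2-microglobulin, made by B2m, to reach the surface. Tap1 and Tap2 form the pump that brings peptides into the endoplasmic reticulum, Tapbp (tapasin) holds the empty molecule beside the pump, and Nlrc5 is the coactivator that acts on class I promoters. Interferons and NF-κB raise these genes in most tissues, and neurons and photoreceptors are known for keeping them low.

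Of the 10 genes, B2m lies at chr2:122147686-122153083 and Nlrc5 at chr8:94434356-94527272 of mm10. The other 8 lie in the MHC region on chromosome 17, from Tapbp (chr17:33915899-33929292) and H2-K1 (chr17:33996017-34000347) through Tap1 (chr17:34187553-34197225) and Tap2 (chr17:34203527-34216321) to H2-D1 (chr17:35262730-35267499), H2-Q4 (chr17:35379617-35385290), H2-Q7 (chr17:35439155-35443773) and H2-T23 (chr17:36029773-36032855), in the GENCODE annotation. Promoter sequences from RefSeq (build GRCm38.p6) matched 8 of the 10 genes. They are shown as background to the members' levels, which went together to differing degrees across cell classes, as described further on. A link between the motifs and the levels was not tested. In the windows printed here, which run from 180 bases before the RefSeq start towards it, capitals mark 4 motifs on either strand: the kappa B motif, the interferon response half-site AANNGAAA, TGACG (the core of the X2 box) and CCAAT. TTTCACTT is AANNGAAA read on the other strand, and ATTGG is CCAAT on the other strand.
B2m, chr2:122147507-122147685, plus strand: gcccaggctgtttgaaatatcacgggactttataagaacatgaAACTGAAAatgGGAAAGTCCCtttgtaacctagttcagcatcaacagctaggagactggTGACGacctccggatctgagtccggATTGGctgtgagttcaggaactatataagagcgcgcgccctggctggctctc
H2-K1, chr17:34000348-34000527, minus strand: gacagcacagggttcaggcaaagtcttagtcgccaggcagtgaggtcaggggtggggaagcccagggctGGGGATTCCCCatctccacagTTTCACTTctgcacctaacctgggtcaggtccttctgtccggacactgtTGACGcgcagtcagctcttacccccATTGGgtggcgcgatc
H2-Q4, chr17:35379437-35379616, plus strand: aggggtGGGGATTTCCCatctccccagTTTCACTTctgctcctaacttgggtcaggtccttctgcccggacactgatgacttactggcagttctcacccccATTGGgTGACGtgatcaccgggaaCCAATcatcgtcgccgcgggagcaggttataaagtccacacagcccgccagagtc
H2-Q7, chr17:35438975-35439154, plus strand: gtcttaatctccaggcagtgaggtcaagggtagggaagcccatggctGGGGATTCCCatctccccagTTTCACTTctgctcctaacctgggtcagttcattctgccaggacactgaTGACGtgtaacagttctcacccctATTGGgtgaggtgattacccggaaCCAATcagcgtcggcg
The stretch from the kappa B motif to the half-site is 29 bases long in H2-K1 and has this form in H2-D1 (chr17:35262923-35262951, plus strand).
H2-D1: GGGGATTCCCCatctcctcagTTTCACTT

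All 4 motifs were present in 5 of the 8 matched windows, those of B2m, H2-K1, H2-D1, H2-Q4 and H2-Q7, against 13 of 32851 windows of the same length (0.0396%) over all genes. The 13 include the windows of these 5 genes, and that of H2-M3, a further H2 class I gene. Taken singly, 5.49% of all windows held the kappa B motif, 15.1% the half-site, 14.8% TGACG and 27.5% CCAAT. The H2 windows are related by descent and are not independent: H2-K1 and H2-D1 share an unbroken run of 40 bases, and H2-Q4 and H2-Q7 one of 34. B2m, on another chromosome, shares no run over 7 bases with any of the 4, and carries its half-site before its kappa B motif, in the reverse order of the heavy chains. The H2-T23 window held 2 half-sites and 1 CCAAT, that of Tap1 a single TGACG and that of Tapbp a single CCAAT. In the H2-Q4 window TGACG (-73 to -69) follows ATTGG (-79 to -75), whereas in B2m, H2-K1, H2-D1 and H2-Q7 it precedes ATTGG. The H2-Q4 match therefore need not lie in an X2 box. A match is a run of letters, not a shown binding site.

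The light chain B2m was highest in immune and vascular cells, next in Müller-like cells and lowest in neurons, in both libraries. Its level was 3035 and 2820 CPM (control and knockout) in monocyte and macrophage-like cells, 1985 and 1890 CPM in neutrophil-like cells and 1853 and 1613 CPM in endothelial-like cells. Müller-like cells followed at 1003 and 977 CPM. Every neuron class lay well below Müller-like cells, the highest being horizontal-like cells at 138 and 201 CPM. Among the other classes the order differed between the libraries: cone-like cells stood next in control (111 CPM) and last in knockout (16.7 CPM), and retinal ganglion-like cells last in control (46.3 CPM) and next in knockout (168 CPM).

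**Figure D1:**
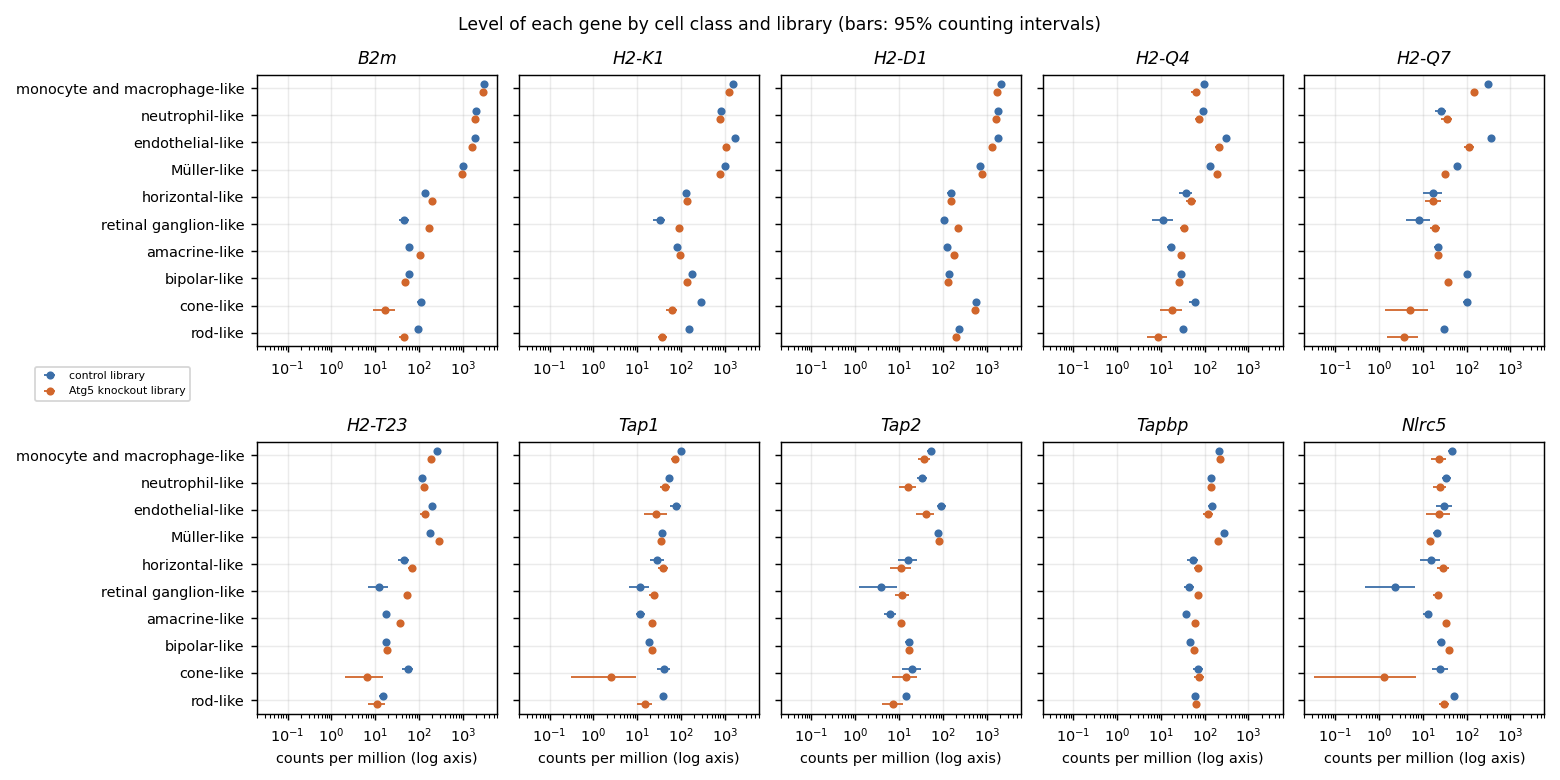
Level of each of the 10 genes (x axis, CPM on a log scale) in 10 cell classes (y axis), with the control library in blue and the Atg5 knockout library in orange. Points are sums over all cells of a class and bars are 95% counting intervals. B2m, H2-K1 and H2-D1 stand highest in immune, endothelial-like and Müller-like cells, whereas Nlrc5 is spread over immune cells and neurons alike, and the largest gaps between the libraries lie in cone-like, rod-like and retinal ganglion-like cells.

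Among the heavy chains, H2-K1 stood at 1689 and 1079 CPM (control and knockout) in endothelial-like cells, 1574 and 1253 CPM in monocyte and macrophage-like cells, and 1002 and 794 CPM in Müller-like cells. H2-D1 stood at 2179 and 1722 CPM in monocyte and macrophage-like cells, 1841 and 1623 CPM in neutrophil-like cells and 711 and 783 CPM in Müller-like cells. Neutrophil-like cells stood above Müller-like cells for H2-D1 but below them for H2-K1 (809 and 779 CPM), in both libraries. H2-T23, the mouse Qa-1 molecule, which presents a signal peptide to receptors of natural killer cells, reached 256 and 190 CPM in monocyte and macrophage-like cells and 182 and 290 CPM in Müller-like cells. In the knockout library the Müller-like level of H2-T23 was the highest of the 10 classes.

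The loading genes had orders of their own. Tapbp was highest in control Müller-like cells (280 CPM, against 218 CPM in monocyte and macrophage-like cells), and in the knockout library monocyte and macrophage-like cells led with 230 CPM against 201 CPM. Tap2 stood at 79.5 and 80.9 CPM in Müller-like cells, against 53.8 and 38.1 CPM in monocyte and macrophage-like cells and 92.8 and 40.3 CPM in endothelial-like cells. Tap1, the other subunit of the pump, showed the reverse, with 37.1 and 35.6 CPM in Müller-like cells and 100 and 72.7 CPM in monocyte and macrophage-like cells. So the pump's subunits had opposite orders between Müller-like and monocyte and macrophage-like cells. In endothelial-like cells Tap1 was at 75.3 and 27.6 CPM, the latter from 13 UMIs. Nlrc5 was highest in rod-like cells of the control library (52.5 CPM) and in bipolar-like cells of the knockout library (38.9 CPM), and Müller-like cells came only at rank 7 and rank 9 of 10 classes, with 20.7 and 14.9 CPM.

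Against all neurons pooled, Müller-like cells held 13.1 times more B2m per UMI in the control library (12.5 to 13.8) and 10.8 times more in the knockout library (10.3 to 11.3). The ratio for H2-T23 was 9.45 and 9.43, for H2-K1 7.23 and 7.43, for Tap2 6.32 and 6.18, and for Tapbp 5.56 and 3.23. H2-Q4 gave 4.76 and 6.90, and H2-D1 gave 3.85 and 4.38. So 7 of the 10 members were at least 1.5-fold higher in Müller-like cells in both libraries, and Tap1 (1.48 in control, 1.65 in knockout) in the knockout library alone. Of all genes measured, 22.1% passed the same fold in the control library and 20.3% in the knockout library. H2-Q7 (1.31 and 1.33) and Nlrc5 (0.696 and 0.451) did not, and for Nlrc5 the neurons held more. Rods hold more of the control pool than of the knockout pool. Between the libraries the pooled neurons had 1 of 10 members higher in knockout (9.02% of all genes), H2-T23 at 19.3 and 30.7 CPM (1.60), and 1 lower (13.0% of all genes), H2-Q7 at 46.8 and 24.9 CPM (0.533), though single neuron classes differed far more, as given below.

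RNA freed from broken cells adds a low level to every droplet. As a rough gauge of such RNA from Müller cells, 10 Müller markers were summed. In neurons the sum was 1.92% to 5.29% of the Müller-like level, over the 6 neuron classes and both libraries. Its genes were uneven: Dkk3 was at 38.8% and 48.4% in amacrine-like cells (control and knockout). The sum does not gauge RNA freed from immune and endothelial-like cells, which held more B2m than Müller-like cells did. B2m in neurons lay between 1.70% and 20.5% of its own Müller-like level, and below the marker share in cone-like cells of the knockout library. H2-D1 lay above it in every neuron class and library, from 15.2% to 82.2%. The part of free RNA in each low B2m level was not tested.

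**Figure D2:**
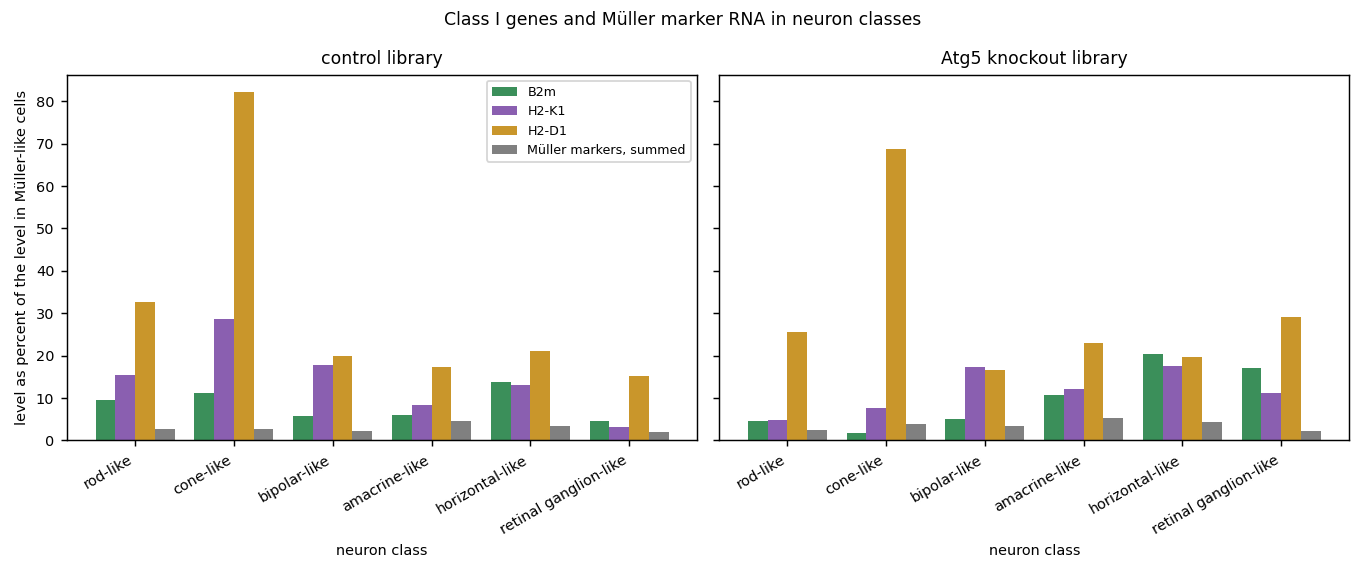
Level of B2m, H2-K1 and H2-D1 in 6 neuron classes as a percentage of the level in Müller-like cells of the same library (y axis), beside the summed Müller markers (grey), with the control library at left and the Atg5 knockout library at right. H2-D1 in cone-like cells stands at 82.2% and 68.7%, above all other bars, while Müller markers stay at or under 5.29%.

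Cone-like cells stood far above the other named neuron classes for 1 heavy chain, H2-D1, in both libraries. Other members were also highest in cone-like cells among neuron classes in control, such as H2-K1 at 287 CPM, but H2-K1 was at 61.5 CPM in knockout. Tapbp was highest there in both libraries, by little (71.3 and 74.3 CPM). There were 112 control and 99 knockout cone-like cells, with H2-D1 at 584 and 538 CPM (ratio 0.921, 0.810 to 1.05), while the other neuron classes lay between 108 and 232 CPM in control and between 131 and 227 CPM in knockout. The level in cones was thus near that of Müller-like cells and was held in both libraries. B2m did not go with it: there were 106 B2m UMIs in control and 13 in knockout cone-like cells, against 557 and 420 H2-D1 UMIs. That is 5.25 H2-D1 UMIs per B2m UMI in control cones (4.26 to 6.53) and 32.3 in knockout cones (18.7 to 61.2). In rod-like cells the same quotient was 2.44 and 4.46, and in Müller-like cells 0.709 and 0.801. H2-D1 shares part of its 3' sequence with other class I genes: 16.6% of the 60-base words in the last 400 bases of its annotated transcripts occur in another gene, against 8.46% for H2-K1, 23.2% for H2-Q4, 11.4% for H2-T23 and none for H2-Q7 and B2m. Reads from such stretches cannot be assigned to 1 gene, so values of H2-D1 and H2-Q4 are less certain than those of B2m.

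The comparison between the libraries asked whether the genes differed with Atg5 deletion, and the ratios differed between cell classes, a difference that was not tested. A member was counted as higher or lower where the ratio of CPM, knockout over control, was at least 1.5 or at most its inverse, among genes with at least 100 UMIs over both libraries of a class. In Müller-like cells, where the Cre is driven, the group stayed close to control as a whole. Of 10 members 1 was higher (5.98% of all genes were), 1 was lower (18.7% of all genes were) and 8 lay between, with a median log2 ratio of -0.05 against -0.17 over all genes. Different clusters held most of the class in the libraries: non-neuronal cluster 5 had 128 control and 5 knockout cells, and cluster 1 had 38 and 222. Rod markers in Müller-like cells were at 532 and 190 CPM (8 of 8 detected in both), and neutrophil markers at 225 and 108 CPM with Ly6g at 0 in both, and their part in these values was not tested.

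B2m was near equal at 1003 and 977 CPM (ratio 0.975, 0.946 to 1.00), and H2-D1 was at 711 and 783 CPM (1.10, 1.06 to 1.14). H2-K1 was at 1002 and 794 CPM (0.792, 0.768 to 0.817). Tap1 (37.1 and 35.6 CPM, 0.961) and Tap2 (79.5 and 80.9 CPM, 1.02) differed least among the loading genes. The classical chains, the light chain and the pump were thus within the 1.5-fold band. Tapbp (280 and 201 CPM, 0.719, 0.677 to 0.764) and the activator Nlrc5 (20.7 and 14.9 CPM, 0.721, 0.574 to 0.904) were on the low side of it.

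The 3 nonclassical heavy chains went apart. H2-T23 was higher in the knockout library, at 290 against 182 CPM (1.59, 1.49 to 1.70), and H2-Q4 lay just under the fold at 191 against 132 CPM (1.45, 1.34 to 1.57). H2-Q7, a Qa-2 molecule, was lower, at 33.0 against 61.2 CPM (0.540, 0.469 to 0.622). Within Müller subclusters the ratio of H2-T23 was 1.11 in subcluster 0, 1.20 in subcluster 1 and 1.04 in subcluster 2. It was larger in the remaining ones, at 2.04 in subcluster 3 (1.13 to 3.44) and 3.23 in subcluster 4 (1.03 to 8.80), each with few knockout cells. There, 85 control cells and only 3 knockout cells formed subcluster 3, rich in Glul (4120 CPM in control) and low in the acute phase gene Lcn2, in which H2-T23 was at 168 and 343 CPM, and 54 control and 13 knockout cells formed the shallow subcluster 4, with H2-T23 at 78.3 and 253 CPM. Subclusters 0 and 1, with H2-T23 levels of 273 and 333 CPM in control and 302 and 402 CPM in knockout, made up 17.3% and 11.6% of control but 53.9% and 31.5% of knockout Müller-like cells. The part of this shift in the ratio of the whole class was not tested.

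**Figure D3:**
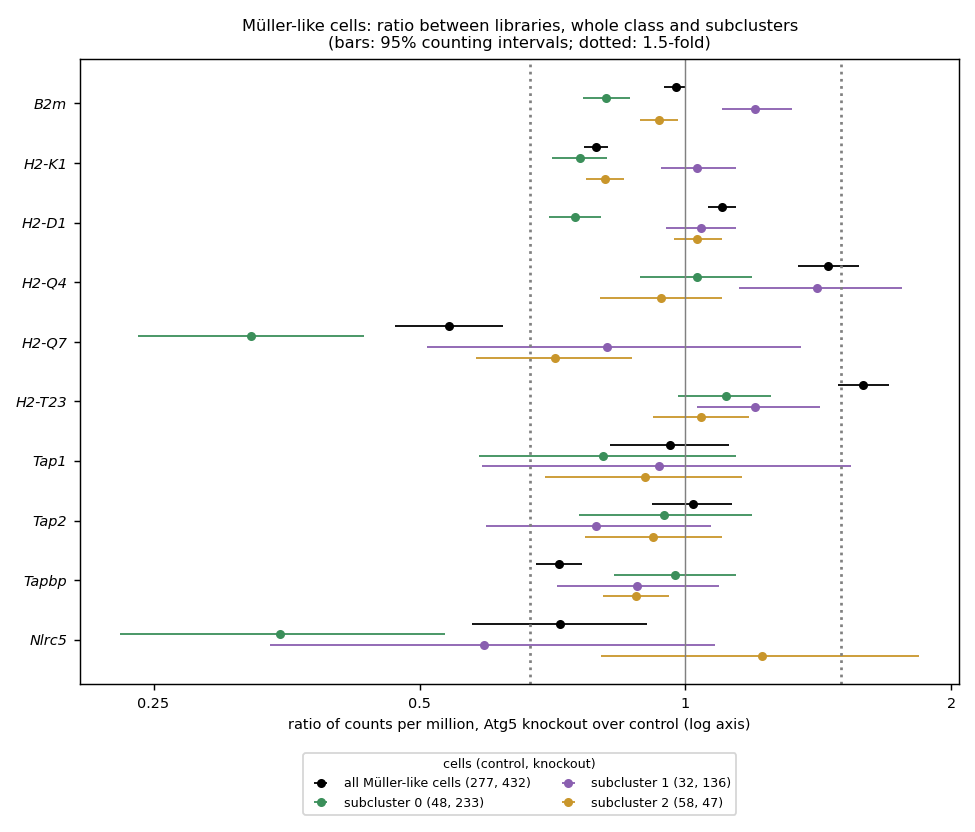
Ratio of levels, Atg5 knockout over control (x axis, log scale), for each gene (y axis) in all Müller-like cells and in the 3 subclusters with over 30 cells in each library. Points are ratios of CPM, bars are 95% counting intervals and dotted lines mark 1.5-fold. The whole-class ratio of H2-T23 (1.59) lies to the right of its ratios within all 3 subclusters, and H2-Q7 lies below 1 throughout.

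Within subcluster 0 (48 control and 233 knockout cells), 2 of 10 members were lower (8.47% of all genes), H2-Q7 at 69.6 and 22.4 CPM (0.322) and Nlrc5 at 33.5 and 11.7 CPM (0.348), and none was higher (6.77% of all genes). In subcluster 1 none of 9 members, and in subcluster 2 none of 10, passed the fold in either direction (for all genes 7.80% higher and 8.36% lower, and 3.63% and 7.66%). H2-Q7 was below 1 in each of the 3 (0.322, 0.814 and 0.711), and so were Tapbp (0.972, 0.882 and 0.879) and Tap1 (0.807, 0.934 and 0.899). Subcluster 2, marked by very high Lcn2 (53922 and 57511 CPM), was the one with most H2-K1 and Tapbp in control (1139 and 354 CPM) and least H2-T23 and H2-D1 among the 3 (149 and 592 CPM). In each library the 5 Müller-like cells holding most UMIs of the 10 genes were taken. They gave 16.4% of the class's member UMIs in control and 7.84% in knockout. Without the 5 cells holding most of each gene, 2 members were higher. H2-T23 fell under the fold in 7 of the alternatives, among them thinning to 5000 UMIs per cell (1.46) and the addition of 4 unnamed clusters nearest to Müller cells (1.39).

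The other genes of the pathway in Müller-like cells are given by list, and their counts are to be read against the 5.98% of all genes that were higher and the 18.7% that were lower in this class. Among further H2 class I genes, 2 of 3 measured were lower, H2-Q6 (49.4 and 24.7 CPM, 0.500) and H2-M3 (22.1 and 12.2 CPM, 0.553), while H2-T22 was equal (1.03). Among class I-like genes off the H2 complex 1 of 3 was lower, the iron regulator Hfe (13.9 and 8.26 CPM, 0.596), and Fcgrt, the neonatal Fc receptor chain that pairs with B2m, was at 0.757. Of 10 chaperones and trimming enzymes of the endoplasmic reticulum 2 were lower, the glycoprotein sensor Uggt1 (0.613) and the disulphide isomerase Pdia3 (0.628), and none was higher, with Hspa5 at 0.955 and Hsp90b1 at 0.757. In the immunoproteasome list, 1 of 6 was higher, the assembly factor Pomp (281 and 458 CPM, 1.63), and 1 lower, the catalytic subunit Psmb9 (42.1 and 25.4 CPM, 0.603). Psme1, a subunit of the proteasome activator, was at 1.21. Psmb9 shares a head-to-head start with Tap1.

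Of 16 transcription factors of class I genes, 1 was higher and 2 were lower. The higher one was Nfkb1, the p105 and p50 subunit of NF-κB (212 and 574 CPM, 2.71, 2.56 to 2.86). The lower ones included the interferon-driven factor Irf1 (151 and 87.5 CPM, 0.578), and Irf7 (219 and 176 CPM, 0.803) lay between. Of 8 interferon receptor and signalling genes 1 was higher, Socs1, an inhibitor of interferon signalling (42.0 and 95.8 CPM, 2.28), and 1 was lower, the kinase Tyk2 (0.653), with Jak1 at 1.27 and Ifnar2 at 1.23. Of 15 interferon-induced genes 1 was higher, the chemokine Cxcl10 (1.81), 2 were lower, the GTPase Iigp1 (84.8 and 23.1 CPM, 0.272) and Ifi44 (0.471), and Bst2 (526 and 785 CPM, 1.49) and Ifit3 (360 and 493 CPM, 1.37) lay between. The median log2 ratio was -0.85 for further H2 genes, -0.42 for class I-like genes, -0.40 for chaperones, 0.20 for the immunoproteasome, -0.19 for transcription factors, -0.10 for receptors and signalling and 0.03 for interferon-induced genes, against -0.17 over all genes. No receptor that recognises class I reached 100 UMIs in these cells.

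Amacrine-like cells of the knockout library held more of the group. In amacrine-like cells, the interneurons that synapse on ganglion cells, 7 of 10 members were higher (2.80% of all genes) and none was lower (2.54% of all genes), with a median log2 ratio of 0.80 against -0.01 over all genes. B2m was at 59.9 and 106 CPM (1.76, 1.57 to 1.98), H2-T23 at 17.8 and 35.9 CPM (2.02) and Nlrc5 at 13.0 and 34.0 CPM (2.61, 2.05 to 3.36). Nlrc5 had the largest ratio. Tap1 (1.83), Tap2 (1.78), H2-Q4 (1.72) and Tapbp (1.60) followed, H2-D1 (124 and 180 CPM, 1.45) and H2-K1 (83.0 and 96.1 CPM, 1.16) lay between, and H2-Q7 was equal at 21.8 CPM in both. All 10 members passed the filter. Tap1, Tap2 and Nlrc5 had under 100 UMIs in control (74, 40 and 82) and passed only through the knockout library, so nothing is concluded from their part in the count. The B2m level was higher in the knockout library in all 4 clusters of the class, at 73.2 and 120, 60.5 and 94.3, 32.6 and 91.2, and 37.0 and 85.3 CPM. It was also higher in both unnamed clusters closest to amacrine cells, at 115 and 344 CPM and at 168 and 309 CPM.

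Of 12 interferon-induced genes measured there, 11 were higher (2.80% of all genes). Among them were Iigp1 (6.52 and 44.5 CPM, 6.82) and Ifit3 (49.1 and 124 CPM, 2.53), and Irf1 was higher as well (11.6 and 37.7 CPM, 3.25). Iigp1 and Irf1 had under 100 UMIs in control (41 and 73) and passed only through the knockout library. Nothing is concluded from the count. In these cells Müller markers were at 628 CPM in control and 654 CPM in knockout (10 of 10 markers detected in both), rod markers at 999 and 246 CPM, and neutrophil markers at 164 and 146 CPM with Ly6g at 0 in both. Monocyte and macrophage markers were at 9.85 and 6.05 CPM and erythroid markers at 136 and 895 CPM. Their part in the class I values was not tested. Taken as the mean of per-cell CPM, 3 members were higher in place of 7, and Tap1 turned to 0.773 when cells were thinned to 1000 UMIs.

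Ratios above 1 were also found in retinal ganglion-like cells, the output neurons, of which there were 40 in control and 80 in knockout. Of the 6 members with 100 UMIs, 6 were higher (5.44% of all genes) and none was lower (2.91% of all genes). In 5 of these 6 the control library alone had under 100 UMIs and the knockout library brought most of them, so the filter favoured genes that were higher there and nothing is read from the count. B2m was at 46.3 and 168 CPM (3.64, 2.78 to 4.83), H2-T23 at 12.1 and 52.3 CPM (4.30, 2.56 to 7.73), H2-K1 at 32.6 and 89.0 CPM (2.73) and H2-D1 at 108 and 227 CPM (2.11). H2-Q4 gave 2.92 and Tapbp 1.58, but 1.12 and 1.000 as the mean of per-cell CPM. The other 4 genes, H2-Q7 (2.28), Tap1 (2.08), Tap2 (3.16) and Nlrc5 (9.62, 3.14 to 47.9), had too few UMIs to be counted. Few cells carried these values: the 5 cells richest in the group held 52.2% of its UMIs in control and 28.5% in knockout, and over the remaining 35 and 75 cells the summed level was 159 and 623 CPM. In horizontal-like cells (31 and 39 cells) 1 of 6 members was higher (3.30% of all genes), H2-T23 at 44.5 and 68.2 CPM (1.53, 1.06 to 2.24, but 0.816 when cells were thinned to 1000 UMIs), and none was lower (1.71% of all genes).

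Photoreceptors differed in the opposite direction. In rod-like cells 7 of 10 members were lower in the knockout library (15.4% of all genes) and none was higher (9.77% of all genes), with a median log2 ratio of -1.01 against -0.13 over all genes. All 10 passed the filter, but each of the 7 did so only through the control library, with 7 to 84 knockout UMIs. The count is therefore a description and nothing is concluded from it. H2-K1 was at 155 and 37.8 CPM (0.244, 0.189 to 0.310), B2m at 95 and 44.8 CPM (0.471, 0.371 to 0.591) and H2-Q7 at 31.0 and 3.73 CPM (0.120, from 7 knockout UMIs). H2-D1 (232 and 200 CPM, 0.860), Tapbp (61.4 and 65.0 CPM, 1.06) and H2-T23 (0.755) were the 3 that lay between. B2m was lower in both rod clusters, at 88.2 and 35.1 CPM and at 103 and 50.7 CPM. Müller markers stood at 380 and 301 CPM in rod-like cells and neutrophil markers at 675 and 392 CPM, both lower in the knockout library too. Monocyte and macrophage markers were at 35.8 and 6.93 CPM (9 and 4 of 9 detected, with Ccr2 and Adgre1 among those at 0 in knockout), and lens markers at 788 and 41.6 CPM. Erythroid markers were at 988 and 6272 CPM. The part of these in the result was not tested. Of 9 interferon-induced genes 6 were lower (15.4% of all genes) and none was higher (9.77% of all genes), with a median log2 ratio of -1.22. Ifit3 was among the lower ones (78.2 and 17.6 CPM, 0.225). It had 623 control and 33 knockout UMIs and passed the filter only through control, so nothing is concluded from this count.

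In cone-like cells 3 of 5 members were lower (3.22% of all genes) and none was higher (1.88% of all genes): B2m (111 and 16.7 CPM, 0.150), H2-K1 (287 and 61.5 CPM, 0.214) and H2-Q7 (102 and 5.12 CPM, 0.0504). Each of the 3 reached 100 UMIs mostly or only through the control library, so the filter favoured genes that were lower in knockout and nothing is read from the count. Below the filter H2-Q4 was at 0.305, H2-T23 at 0.115, Tap1 at 0.0627, Tap2 at 0.707 and Nlrc5 at 0.0509. These values came from a handful of control cells. The 5 control cells with most B2m held 75.5% of its UMIs in the class, and the like share was 70.8% for H2-K1 and 83.5% for H2-Q7 but 27.8% for H2-D1. Without them the counts stayed at 3 lower, and B2m was at a ratio of 0.228 and H2-K1 at 0.428.

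**Figure D4:**
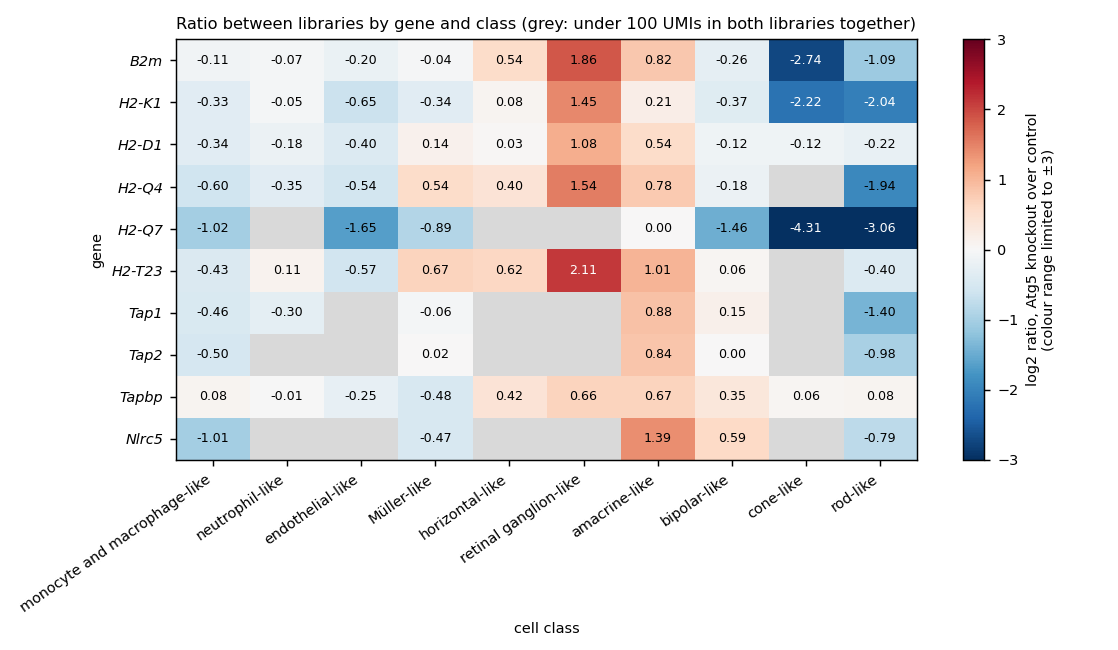
Log2 ratio of levels, Atg5 knockout over control (colour and printed value), for each gene (rows) in 10 cell classes (columns). Grey cells had under 100 UMIs over both libraries. Retinal ganglion-like and amacrine-like columns are mostly red, rod-like and cone-like columns mostly blue, and the Müller-like column ranges from H2-Q7 (-0.89) to H2-T23 (0.67), with B2m, Tap1 and Tap2 within 0.06 of 0.

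Bipolar-like cells, which pass the photoreceptor signal on, stood between. There 1 of 10 members was higher (2.60% of all genes), Nlrc5 at 25.8 and 38.9 CPM (1.51, 1.24 to 1.84), and 1 was lower (2.86% of all genes), H2-Q7 at 103 and 37.5 CPM (0.364, 0.318 to 0.417). B2m was at 58.1 and 48.6 CPM (0.837) and H2-D1 at 142 and 131 CPM (0.921). Control bipolar-like cells held more H2-Q7 per UMI than Müller-like cells (61.2 CPM) did.

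Immune and vascular classes were near control or below it. In monocyte and macrophage-like cells 3 of 10 members were lower (6.27% of all genes), H2-Q7 (306 and 151 CPM, 0.491), Nlrc5 (47.2 and 23.4 CPM, 0.495) and H2-Q4 (94.4 and 62.3 CPM, 0.660, but 1.82 with thinning to 1000 UMIs), and none was higher (3.42% of all genes). H2-Q4 and Nlrc5 had 72 and 27 knockout UMIs and passed the filter only through control, so nothing is concluded from the count. B2m in monocyte and macrophage-like cells was 0.929 of control. In these cells Müller markers were at 2873 CPM in control and 527 CPM in knockout, and neutrophil markers at 2011 and 5829 CPM, and their part was not tested. In neutrophil-like cells none of 7 members passed the fold (3.54% of all genes were higher and 15.5% lower), with B2m at 0.952 and H2-D1 at 0.882. In endothelial-like cells (36 and 22) 2 of 7 were lower (12.2% of all genes) and none was higher (8.07% of all genes): H2-Q7 (360 and 114 CPM, 0.318) and H2-K1 (0.639, but 1.33 with thinning to 1000 UMIs), beside neutrophil markers at 5335 CPM in control and 189 CPM in knockout, whose part was not tested. H2-Q7 was lower in the knockout library in Müller-like, bipolar-like, rod-like, cone-like, monocyte and macrophage-like and endothelial-like cells, and equal in amacrine-like cells. In rod-like, cone-like and endothelial-like cells H2-Q7 had 7, 4 and 54 knockout UMIs and passed the filter mostly or only through control. Nothing is concluded from those 3 classes. With under 100 UMIs, its ratio was 2.28 in retinal ganglion-like (1.18 to 4.84), 1.34 in neutrophil-like and 1.00 in horizontal-like cells.

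In some neuron classes a large share of the UMIs of the 10 genes lay in few cells, and the richest cells also held more interferon-induced RNA than the rest. Richest means most UMIs and not highest CPM, so deep cells were favoured. In Müller-like cells the 5 richest held 4074 CPM of interferon-induced genes against 2675 CPM in the rest in control. In knockout the order was reversed, at 1935 against 3311 CPM. The 5 richest cells held 5.75% and 6.54% of member UMIs in rod-like cells, 13.5% and 4.22% in bipolar-like, 12.5% and 7.06% in amacrine-like, 57.8% and 32.5% in horizontal-like and 50.3% in control cone-like cells, and in knockout the 94 cone-like cells outside the 5 richest held 84.0%. The 5 control cone-like cells with most member UMIs, chosen for that, had 9 or 10 of the 10 genes detected in each. Their summed member level was 7534 CPM against 741 CPM in the other 107 cells. Their summed level of 15 interferon-induced genes was 2202 CPM against 89.9 CPM. Müller markers in the same 5 cells were at 301 CPM against 372 CPM in the rest, neutrophil markers at 46.4 against 122 CPM, and cone markers at 17828 against 19762 CPM. Monocyte and macrophage markers were at 34.8 against 25.4 CPM, and the part of RNA from other cells was not tested. In the knockout library the 5 richest cone-like cells reached 1729 CPM of members and 56.4 CPM of interferon-induced genes, close to the 42.6 CPM of the rest.

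Other neurons showed the same pairing. The 5 richest control rod-like cells were at 9132 CPM of members and 6152 CPM of interferon-induced genes, against 690 and 403 CPM in the rest. The 5 richest control bipolar-like cells were at 6278 and 2764 CPM against 558 and 219 CPM. In amacrine-like cells of the knockout library they were at 1854 and 2918 CPM, and the other 1178 cells at 567 and 666 CPM, so that here the rest of the class was higher too than in control (349 and 266 CPM). At least 5 of the 10 genes were detected in 208 of 1183 knockout amacrine-like cells (17.6%) and in 60 of 685 control ones (8.76%), at median depths of 6224 and 5759 UMIs. The like share was 95.6% and 78.7% in Müller-like cells (20524 and 16632 UMIs) and 0.213% and 1.75% in rod-like cells (1196 and 1163 UMIs).

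**Figure D5:**
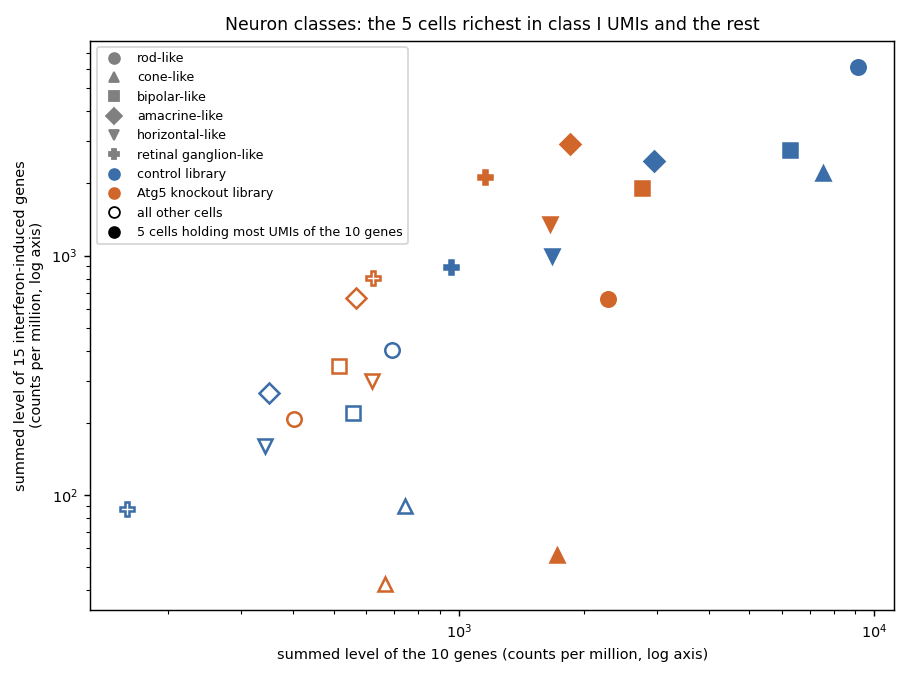
Summed level of the 10 genes (x axis) against summed level of 15 interferon-induced genes (y axis), both in CPM on log scales, for 6 neuron classes. Filled symbols are the 5 cells holding most UMIs of the 10 genes and open symbols all other cells, in blue for the control and orange for the Atg5 knockout library. Filled symbols lie to the right by construction and also lie higher in each class, least so in cone-like cells of the knockout library (56.4 against 42.6 CPM).

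Across 8 classes with at least 40 cells in each library (16 values), the members' log2 levels went together, given here as a description over values that share libraries and depth. B2m had r = 0.94 with H2-T23, 0.93 with H2-K1, 0.88 with Tapbp and 0.87 with Tap1, but 0.60 with H2-Q7 and 0.38 with Nlrc5. Among 11758 genes with at least 500 UMIs, those most like B2m were Trim30a (0.972), Ifnar2 (0.969), Atp6v0e (0.968), Gch1 (0.967) and Relb (0.966). Those most like H2-K1 were Notch2 (0.944), Plekhg1, Rest, Msn and Glmp, and those most like Tap1 were its neighbour Psmb9 (0.948), Parp9 (0.905), Sphk2, Dtx3l and Parp14. Psmb9, Parp9, Dtx3l and Parp14 are known interferon-induced genes.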

How the data were processed

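Each library was a 10x Genomics 3' v3.1 library of papain-dissociated retinas, per the labels' protocols. The deposited values are raw UMI counts, which the authors made with Cell Ranger 6.0.0 on mm10, per the submitters' processing notes, which also name Seurat 5.2.1. Of symbols listed more than once (40 repeats) the first was used. The 10 genes and all lists were chosen with earlier results of these data known.

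Barcodes with at least 500 genes and under 25% mitochondrial UMIs were kept, as the series' design text states. Cells of both libraries were clustered in R 4.3.3 with Seurat 5.3.0 (2000 variable genes, 11 components, resolution 1, seed 1), leaving the 10 genes and the pathway lists out of the variable genes, and non-neuronal clusters were clustered again. Clusters were named from marker lists: a best score of at least 1, the next class at no more than 0.6 of it, at least 3 markers with 10 UMIs, and top 10 genes not led by another class. Thresholds were set after seeing the data, and 516 control and 564 knockout cells stayed unnamed. Differences from the study may come from these rebuilt names. Doublets were not removed: Scrublet (scanpy 1.11.5) marked 0 and 1 cells at its automatic threshold and so did not work, and cells of highest score were left out as an alternative.

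UMIs were summed per class and library and divided by the class total. Levels have exact Poisson intervals, and ratios have intervals from the exact binomial distribution of the 2 counts, both at 95% and for counting error only. With 1 library per group no test was made. Calls and intervals were tested on simulated counts drawn with counting error only, so that test says nothing about the spread between cells or libraries. Log2 ratios add 0.5 counts, and likeness is Pearson's r of log2(CPM + 5). Named besides the 10 genes are, per list, the highest and lowest ratio and the 2 highest levels in Müller-like cells, and the 5 genes most like B2m, H2-K1 and Tap1. H2-M3, Pdia3 and Ifi44 were added after their values were seen, to complete counts, and 1 list gene is not reported here. Positions come from GENCODE M21. Alternatives covered scaling (edgeR 4.0.16), depth, free RNA, rich cells, filters, doublets and cell naming.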

Additional observations from a re-analysis of the deposited data

Results flagged for a closer look

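For 6 of the 10 genes, the ratio of knockout over control passed 1.5-fold in 1 cell class upwards and in another downwards. The classes named are those with the largest ratio in each direction. The share of all genes that do so was not computed, so nothing is read from the count. In retinal ganglion-like, cone-like and rod-like cells the filter also favoured such genes, as given above. It did so too for Tap1, Tap2 and Nlrc5 in amacrine-like cells (74, 40 and 82 control UMIs). In monocyte and macrophage-like cells Nlrc5 had 27 knockout UMIs and passed only through control. Nothing is concluded from the ratios of these genes. Each ratio rests on 1 library per group, so these differences between classes were not tested. B2m was at 3.64 in retinal ganglion-like and 0.150 in cone-like cells. H2-K1 was at 2.73 in retinal ganglion-like and 0.214 in cone-like cells. H2-Q4 was at 2.92 in retinal ganglion-like cells (1.12 as the mean of per-cell CPM) and 0.261 in rod-like cells. The pump genes were higher in amacrine-like and lower in rod-like cells, with Tap1 at 1.83 and 0.379 and Tap2 at 1.78 and 0.508. Nlrc5 was at 2.61 in amacrine-like and 0.495 in monocyte and macrophage-like cells.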

How the results depend on the processing

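No paired analysis was possible because each group had 1 library. Intervals cover counting error only, and pooled animals, library and group cannot be told apart. In Müller-like cells the count of members at least 1.5-fold higher (1 as reported) was 2 with TMM scaling and without the 5 cells holding most of each gene, and 0 with thinning to 5000 UMIs, the stricter cell filter, per-cell marker naming, subclusters 0, 1 or 2 alone, or the unnamed clusters added. The count lower (1 as reported) was 2 with thinning, with free RNA subtracted at the rod marker share, with the listed genes kept for clustering and in subcluster 0, and 0 in subcluster 2. In subcluster 1 it was 1 with the UMI minimum taken over the whole class and 0 with it taken in the subcluster. The median log2 ratio (-0.05) was 0.15 with TMM, 0.19 as the mean of per-cell CPM, 0.07 without the richest cells, -0.15 with per-cell naming and -0.31 in subcluster 0. Its sign therefore depended on the setting, and the cause was not tested. TMM scaling moved all log2 ratios up by 0.193 in Müller-like, 0.115 in rod-like, 0.232 in neutrophil-like and 0.150 in endothelial-like cells. H2-Q7 stayed below 1 (0.322 to 0.814) and H2-T23 above 1 (1.04 to 1.82) in Müller-like cells under all 15 alternatives. In the other classes the count higher in amacrine-like cells was 3 as the mean of per-cell CPM against 7, while the counts in retinal ganglion-like cells (4 to 6), rod-like cells (6 to 8) and cone-like cells (3 to 4) stayed within 1.5 times. Small counts elsewhere moved more: members lower ranged from 1 to 10 in monocyte and macrophage-like cells (3 as reported), 1 to 7 in endothelial-like cells (2) and 1 to 3 in bipolar-like cells (1), and members higher from 0 to 6 in horizontal-like and 0 to 2 in bipolar-like cells (1 each). The neutrophil marker share came to 128% in knockout monocyte and macrophage-like and 96.4% in control endothelial-like cells, so that subtraction, which gave the 10 and the 7, is void there. With thinning to 1000 UMIs, 4 ratios turned: Tap1 in amacrine-like (0.773), H2-T23 in horizontal-like (0.816), H2-Q4 in monocyte and macrophage-like (1.82) and H2-K1 in endothelial-like cells (1.33), and Tapbp in retinal ganglion-like cells came to 1.000 as the mean of per-cell CPM. Subtracting free RNA at the rod marker share (21.8% in control and 18.1% in knockout amacrine-like cells) was not run for rod-like and cone-like cells, which express the markers. Subcluster 2, the added clusters, the neutrophil marker share, equal weights for neuron classes and all runs outside Müller-like cells were chosen after seeing the data.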
